A study of Homo sapiens with 29 samples.

Results

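The 52 genes described here encode the machinery that moves newly made secretory proteins into the endoplasmic reticulum (ER), folds and glycosylates them there and removes those that fail to fold, together with sensors of that compartment. They were found by matching a list of 52 symbols to Ensembl identifiers among 66025 entries and keeping those with a mean of at least 1 CPM (counts scaled to a common library size) over 29 libraries. All 52 passed, and the lowest mean was 9.82 CPM, for DERL3. By role they were 12 folding genes, 14 genes of the translocon and signal peptidase, 6 glycosylation genes, 16 degradation genes and 4 sensor genes.

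Polyadenylated RNA was measured in EndoC-βH1 cells, an insulin-secreting line of human pancreatic β cells, after 10 days in medium that HEK293 cells, a human embryonic kidney line, had conditioned for 3 hours; the medium was filtered, brought to equal protein levels and renewed daily. The HEK293 cells stably overexpressed mutant CEL (MUT, 10 libraries), wild-type CEL (WT, 10 libraries) or the empty vector (EV, 9 libraries). CEL is carboxyl ester lipase, an enzyme that pancreatic acinar cells release into the gut, so the β cells met it through medium from another cell type, and the controls also grew in HEK293-conditioned medium. Batch 1 held 4 MUT, 4 WT and 3 EV libraries, and batches 2 and 3 held 3 of each. The labels name no mutation. Nor do they tell whether libraries of 1 batch and medium were separate cultures, so a p-value weighs a difference against library spread that may be technical only.

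Proteins bound for secretion, proinsulin among them, enter the ER through the Sec61 channel, lose their signal peptide and gain N-linked sugars, and are folded by chaperones and disulfide isomerases. Chains that do not fold are drawn back to the cytosol and ubiquitinated, which is called ER-associated degradation. When unfolded chains accumulate, the sensors IRE1 (gene ERN1) and ATF6 switch on many of these genes, partly through the transcription factor XBP1, and β cells are known for a high folding load because they make proinsulin in bulk.

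MUT libraries held 28.7 to 40.2 M estimated counts, WT libraries 26.2 to 38.3 M and EV libraries 27 to 39.5 M. All 12 β-cell markers examined averaged 1 CPM or more, and their summed level ran from 19383 to 30161 CPM in MUT, 20179 to 29367 CPM in WT and 20537 to 26070 CPM in EV libraries. Of 7 acinar markers 1 reached 1 CPM, and 2 were at 0 in every library. Over the 52 genes, WT replicate 1 of batch 3, the library with the smallest total, lay 0.125 (log2, root mean square) from the mean of its batch and medium, and the other 28 libraries lay 0.0242 to 0.0874 from theirs. In bulk RNA, fewer cells of a type and less RNA per cell cannot be told apart.

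Stretches of promoter are shown for the members that hold an ER stress response element, the sequence by which the ATF6 and XBP1 proteins are known to act, so that the values given below for these genes can be read beside them. RefSeq windows (GRCh38.p14) from 250 bases before to 50 after the start were found for 46 of the 52 genes, in 57 windows. The element ERSE, CCAAT and CCACG with 9 bases between them, searched on both strands, was in windows of 4 genes and in 6 of 57 windows, against 27 of 35116 windows of all genes (0.0769%). The related element ERSE-II, ATTGG and CCACG with 1 base between them and searched in the same way, was in the window of 1 gene, HERPUD1, and in 0.0541% of all windows. The core TGACGTG, to which XBP1 and ATF6 are known to bind, was in 1 window each of 8 genes (DNAJC10, TXNDC5, SEC61A1, SEC62, SSR3, SSR4, UBE2J1 and VCP) and in 1.97% of all windows. No gene held more than 1 of these 3 motifs, the 3 CANX windows with a match shared 1 copy, and a match describes letters only. Capitals mark the fixed letters of the element, and each stretch is written 5′ to 3′ on the gene's strand.
CALR, chr19:12938359-12938407, plus strand, element 225 bases before the start and read on the opposite strand: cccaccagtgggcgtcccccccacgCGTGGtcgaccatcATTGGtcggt
CANX, chr5:179698738-179698801, plus strand, element 151 bases before the start: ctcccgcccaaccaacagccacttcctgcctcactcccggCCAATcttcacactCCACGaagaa
PDIA6, chr2:10812848-10812911, minus strand, element 86 bases before the start: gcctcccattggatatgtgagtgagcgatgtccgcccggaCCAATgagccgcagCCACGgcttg
HERPUD1, chr16:56931985-56932040, plus strand, element 117 bases before the start: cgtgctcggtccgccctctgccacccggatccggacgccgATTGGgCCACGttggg
XBP1, chr22:28800598-28800661, minus strand, element 52 bases before the start: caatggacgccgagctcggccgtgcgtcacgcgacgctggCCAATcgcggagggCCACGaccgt

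Batch held most of the variance of these genes. The median share of a member's variance held by batch was 75.4%, against 46.7% over all 21259 genes tested. The medium, alone and within batches, held 4.1% and 9.7% for members and 4.8% and 14.4% for all genes. The median share left over was 6.8% for members and 22.5% for all genes, which include genes of low count. In batch 2 against batch 1, with media fitted, 42 members rose and 2 fell (edgeR's quasi-likelihood test, Benjamini-Hochberg adjusted p under 0.05), where 66.7% of all genes were called, 33.7% upward and 33% downward. The members' median log2 difference was 0.35, and that of all genes was -0.0088. In batch 3 against batch 1, 36 rose and 4 fell (56.6% of all genes called, 29.9% upward and 26.7% downward), with a median of 0.23 for members and 0.003 for all genes. In batch 3 against batch 2, 2 rose and 30 fell (44.5% of all genes called, 22.2% upward and 22.3% downward), with a median of -0.11 for members and 0.0059 for all genes. With a filter of at least 1 CPM in 9 libraries, the shares of all genes called were 73.2%, 64.5% and 50.8%, in the same order. Markers of cell types moved too: in batch 2 against batch 1, 7 of 12 β-cell markers rose and 1 fell, with log2 differences from -2.55 to 4.09, and 3 of 5 tested markers of other islet cells rose and 1 fell, from -2.17 to 3.42. Mitochondrial transcripts made up 5.77 to 8.28% of counts in batch 1, 3.99 to 5.41% in batch 2 and 3.6 to 5.05% in batch 3, and the part of these in the result was not tested.

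**Figure D1:**
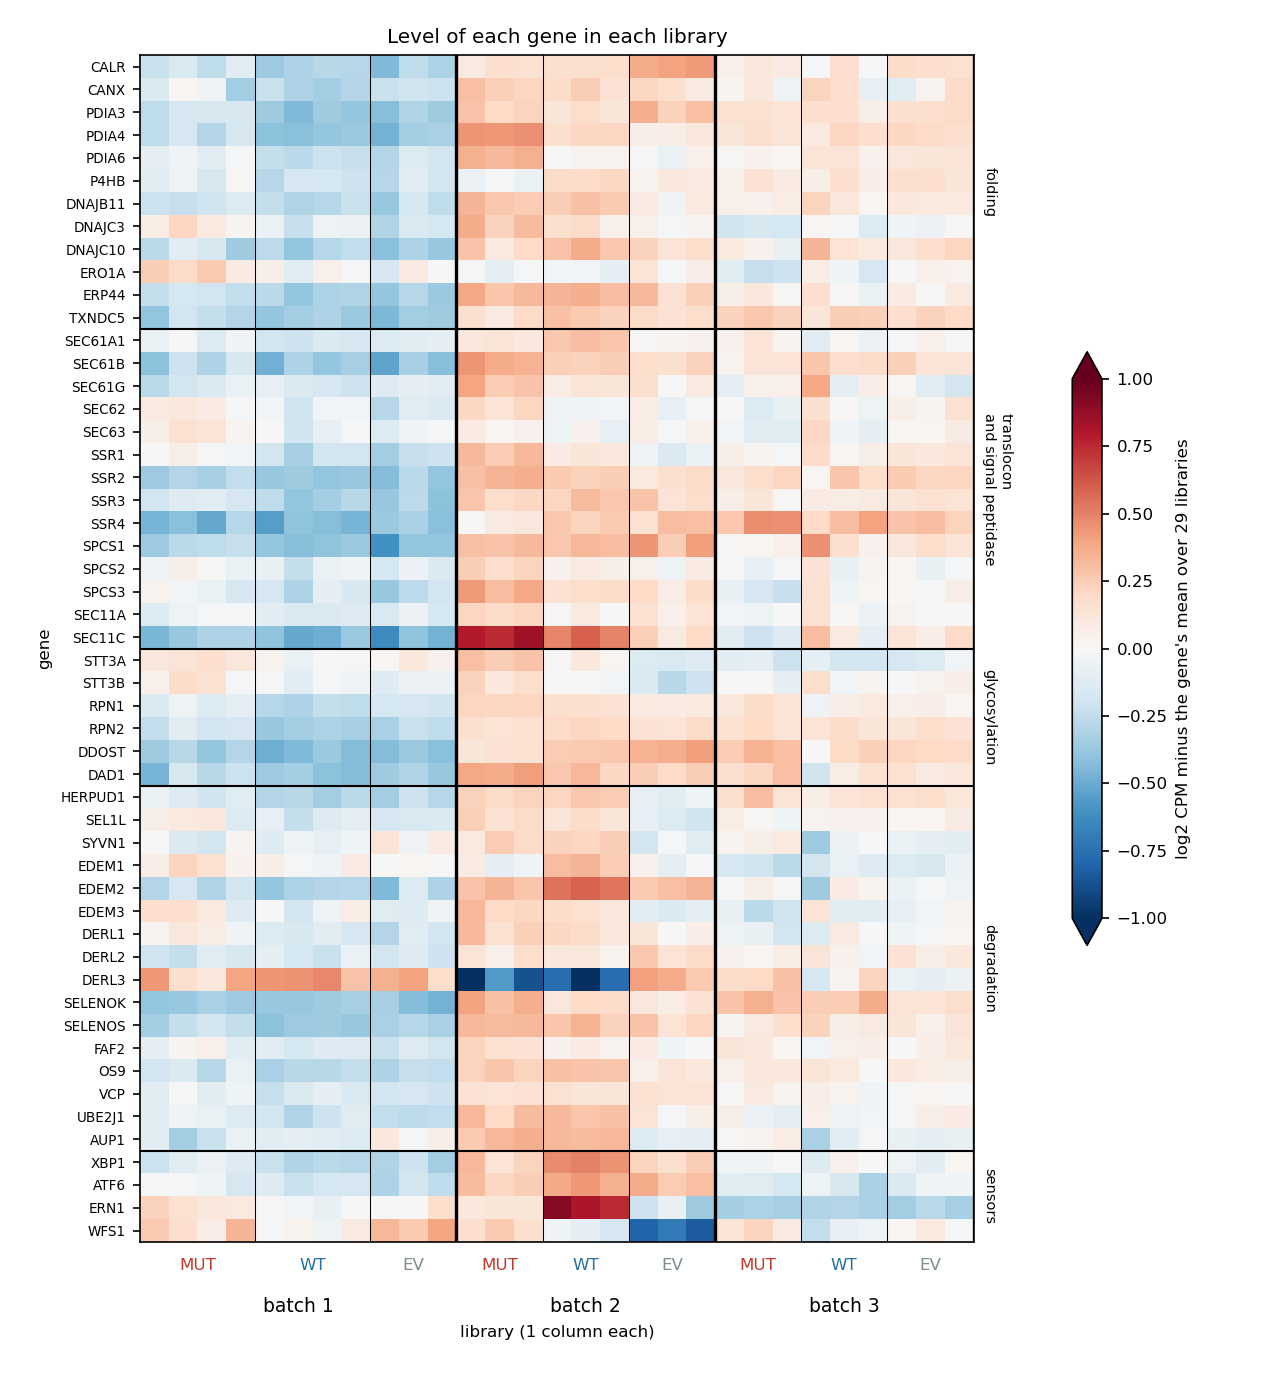
Level of the 52 genes (rows, grouped by role) in the 29 libraries (columns, by batch and medium), as log2 CPM minus the gene's mean over all libraries; the colour scale ends at -1 and 1. Most rows are blue in batch 1 and red in batches 2 and 3, and DERL3, ERN1 and WFS1 stand out in batch 2.

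Every folding gene but ERO1A, an oxidase that recharges disulfide isomerases, was higher in batch 2 than in batch 1. PDIA3, a disulfide isomerase that works with the lectins calnexin and calreticulin, differed by 0.53 ± 0.03 (log2, SE) with an adjusted p of 8.46e-15 by edgeR's quasi-likelihood test. CALR, which encodes calreticulin and carries the element shown above, averaged 775 ± 49.6 CPM in the 11 libraries of batch 1, 1101 ± 98.96 CPM in the 9 of batch 2 and 999.6 ± 53.87 CPM in the 9 of batch 3 (SD). Batch 1 did not overlap with either later batch for CALR, whose highest batch 1 library had 865.9 CPM and whose lowest later library had 918.6 CPM. CANX, which encodes calnexin, ran from 138.9 to 179.3 CPM in batch 1, 188.4 to 217.8 CPM in batch 2 and 162.6 to 206.8 CPM in batch 3. Its lowest library of batch 2 was above its highest of batch 1, and no difference between media was called for it by edgeR in the pooled fit or in any batch.

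Of the translocon and signal peptidase genes, 12 of 14 rose in batch 2 against batch 1, led by SEC11C, a catalytic subunit of signal peptidase, with a log2 difference of 0.95 ± 0.08. SEC62 and SEC63, partners of the Sec61 channel in post-translational entry, differed by 0.10 and 0.03 and were not called. Of the 6 glycosylation genes 4 rose, and STT3A and STT3B, the catalytic subunits of oligosaccharyltransferase, differed by 0.01 and -0.0029 and were not called, while the accessory subunits DDOST and DAD1 rose by 0.65 and 0.63.

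Of the 16 degradation genes 13 rose and 1 fell in batch 2 against batch 1. SELENOK, a selenoprotein of the ER membrane, rose by 0.60 ± 0.03, and DERL3, a derlin of the channel that exports misfolded proteins, fell by 0.76 ± 0.16 on the log2 scale. The MUT and WT libraries of batch 2, described below, were low for DERL3. Among the sensors, XBP1 rose by 0.54 ± 0.04 and ATF6 by 0.47 ± 0.04, ERN1 differed by 0.22 and was not called, and WFS1, which encodes wolframin, an ER membrane protein that restrains ATF6 and is mutated in Wolfram syndrome, fell by 0.37 ± 0.10. For ERN1 and WFS1 the media of batch 2 lay apart, as described below, so their batch differences average over media that did not move alike. ATF6 and XBP1 were lower again in batch 3 than in batch 2, with log2 differences of -0.45 and -0.34. The labels give a batch number only, so whatever differed between the batches cannot be told apart.

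The study's main comparison asks what mutant CEL medium does to β cells. In the fit over all batches, 9 members rose in MUT against EV and none fell (edgeR's quasi-likelihood test, adjusted p under 0.05), where 5.2% of all genes were called, 2.95% upward and 2.25% downward. The share of all genes includes genes of low count, and with a filter of at least 1 CPM in 9 libraries it was 7.8%. The members' median log2 difference was 0.08, against 0.0001 over all genes, and 45 of 52 had a positive sign. The 9 were 1 folding gene, 1 translocon gene, 3 glycosylation genes and 4 degradation genes, with no sensor. By unadjusted p under 0.05, 24 had a positive and 1 a negative difference, and 23.5% of all genes passed. Of the 12 β-cell markers 1 rose, PCSK2 by 0.15, 5 had a positive sign and their median was -0.02. Of the 5 tested markers of other islet cells 1 rose, SST by 0.36, 2 had a positive sign and their median was -0.12, and the summed level of the other islet list ran from 28.3 to 227 CPM in MUT and 26.3 to 179 CPM in EV libraries; their part in the result was not tested.

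PDIA4, a disulfide isomerase with several thioredoxin domains, was the folding gene that rose. It had 223.5, 237.8, 218.3 and 238.5 CPM in MUT libraries of batch 1 and 192.6, 211.5 and 212.8 CPM in EV libraries. In batch 2 it had 363.2, 359.7 and 365.8 CPM in MUT and 278.6, 279.7 and 288.5 CPM in EV. MUT lay above EV in both batches without overlap, whereas in batch 3 the MUT libraries, at 290.8, 298.7 and 291.5 CPM, lay below the EV libraries, at 307.8, 304.3 and 300.4 CPM. The pooled difference was 0.16 ± 0.04 with an adjusted p of 0.0295 by edgeR, and the differences within batches 1, 2 and 3 were 0.14, 0.37 and -0.05. PDIA6, another disulfide isomerase whose promoter element is shown above, had 522, 509.1 and 522.1 CPM in MUT and 408.9, 388 and 422.2 CPM in EV libraries of batch 2, and its differences in batches 1, 2 and 3 were 0.12, 0.35 and -0.10, with a pooled adjusted p of 0.065 by edgeR.

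SSR1, the α subunit of the translocon-associated protein complex that helps some proteins into the channel, had a pooled difference of 0.19 ± 0.05 in MUT against EV (adjusted p = 0.0292, edgeR). MUT lay above EV in all libraries of batches 1 and 2, by 0.24 ± 0.05 and 0.39 ± 0.04, and below EV in all libraries of batch 3, by -0.10 ± 0.05. For SEC11C the differences were 0.12, 0.62 and -0.28. It had 207.8, 202.1 and 215.8 CPM in MUT and 141.9, 128.1 and 138.2 CPM in EV libraries of batch 2, against 110.9, 104 and 110.2 CPM in MUT and 131.3, 125.8 and 137.4 CPM in EV libraries of batch 3. The MUT and EV libraries did not overlap in either of these batches, and their order was opposite.

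Among the glycosylation genes, STT3A (0.15 ± 0.04), STT3B (0.17 ± 0.05) and RPN1 (0.10 ± 0.03) rose in MUT against EV over all batches. RPN1, ribophorin I, is an accessory subunit of oligosaccharyltransferase. It had 298.4, 319.4, 299.6 and 310.7 CPM in MUT and 293.1, 293.8 and 287.5 CPM in EV libraries of batch 1. In batch 2 the values were 382.4, 381.4 and 383 CPM in MUT and 353.3, 349.6 and 352.7 CPM in EV, and in batch 3 they were 355.2, 375.3 and 362.6 CPM in MUT and 341.8, 346 and 335.6 CPM in EV. RPN1 was higher in every MUT library than in every EV library of the same batch, with differences of 0.06, 0.12 and 0.10, and its dependence on batch was not called (interaction adjusted p = 0.782, edgeR). STT3A and STT3B did depend on batch, with 0.42 and 0.38 in batch 2 and -0.03 and -0.07 in batch 3.

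The degradation genes that rose over all batches were HERPUD1, which recruits the ubiquitin machinery and carries the ERSE-II element shown above, SEL1L, the adaptor of the ligase complex, SELENOK, and FAF2, which brings the segregase VCP to the membrane. HERPUD1 rose by 0.17 ± 0.04 and had 121.2, 116, 110.5 and 116.5 CPM in MUT and 99.66, 110 and 103.8 CPM in EV libraries of batch 1. In batch 2 it had 148.6, 144.5 and 147.4 CPM in MUT and 119.4, 117.6 and 123.2 CPM in EV, and in batch 3 141.6, 156.6 and 139.2 CPM in MUT and 140.4, 143.4 and 136.9 CPM in EV. MUT and EV were apart in batches 1 and 2 and overlapped in batch 3. SEL1L (0.17 ± 0.04), SELENOK (0.15 ± 0.03) and FAF2 (0.11 ± 0.03) were likewise above EV in every MUT library of batch 2. SYVN1, the ubiquitin ligase itself, differed by 0.09 with an adjusted p of 0.342 by edgeR.

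None of the 52 genes was called in MUT against EV when batch 2, or any 1 of its 3 MUT or 3 EV libraries, was left out, nor with 1 summed profile per batch and medium. Calls over all genes fell in the same settings, to 0% without batch 2 or with summed profiles and to 0.0233 to 0.327% without 1 of those 6 libraries. Without MUT replicate 2 of batch 1, 2 members and 1.44% of all genes were called, and with DESeq2 17 members and 12.1%. With any 1 of the 29 libraries left out the log2 difference was 0.09 to 0.10 for RPN1, 0.14 to 0.18 for PDIA4 and 0.14 to 0.18 for HERPUD1. Without batch 2 it was 0.08 for RPN1, 0.06 for PDIA4, 0.10 for HERPUD1 and 0.02 for STT3A.

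How far the MUT against EV difference depended on batch was tested directly. For 34 of 52 members the interaction of medium and batch was called (edgeR's quasi-likelihood F test, adjusted p under 0.05), and 42.4% of all genes were called. These were 9 folding, 10 translocon, 3 glycosylation, 9 degradation and 3 sensor genes. Among all 52 members, called or not, 10 had a positive sign and 1 a negative sign in all 3 batches. Signs were not counted in this way over all genes, so no background stands beside these numbers. With a filter of at least 1 CPM in 9 libraries the share of all genes was 53.6%. Without batch 2, 10 members and 7.83% of all genes were called.

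In batch 1 alone, 4 members rose in MUT against EV and none fell, where 1.4% of all genes were called, 0.497% upward and 0.907% downward. They were DNAJC3 (0.29 ± 0.06), a co-chaperone of BiP, SEC62 (0.23 ± 0.05), SSR1 and DERL1 (0.23 ± 0.05), a derlin. MUT libraries lay above all EV libraries for 22 members and below them for 1, AUP1, against 9.96% and 7.3% of all genes. The count of 4 was 0 when EV replicate 2 or 4, MUT replicate 2 or 3, or WT replicate 1, 3 or 4 of the batch was left out, and 0.00467 to 0.0381% of all genes were then called. It was 18 without MUT replicate 4 (14.5% of all genes), 20 with DESeq2 (15.5%) and 0 when the spread was not estimated robustly (0.0143%). Mitochondrial transcripts made up 5.77 to 6.46% of counts in MUT libraries of batch 1 and 7.08 to 8.28% in EV libraries, and the part of this in the result was not tested.

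In batch 2 alone, 29 members rose and 5 fell in MUT against EV, where 47.8% of all genes were called, 24.1% upward and 23.8% downward. With a filter of at least 1 CPM in 9 libraries the share of all genes was 57.1%. The members' median was 0.16, and that of all genes was -0.0013. Of the translocon genes 9 rose and 1 fell, of the degradation genes 10 rose and 1 fell, of the glycosylation genes 4 rose and 1 fell, of the folding genes 4 rose and 2 fell, and of the sensors 2 rose. The 5 that fell were CALR (-0.26), P4HB (-0.11), a disulfide isomerase, SSR4 (-0.18), the δ subunit of the translocon-associated complex, DDOST (-0.23) and DERL3 (-1.16). Over the alternatives and the single libraries left out, the count ran from 32 to 40. The share of all genes moved too, and was 26.2% with no filter on low counts and 40.5% with DESeq2. Of the 12 β-cell markers 4 rose and 6 fell in the same contrast, and of 5 markers of other islet cells 1 rose and 2 fell, with log2 differences down to -1.93. Their part in the result was not tested.

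In batch 3 alone, no member was called in MUT against EV by edgeR, where 0.049% of all genes were called. By unadjusted p under 0.05, 10 members passed (15% of all genes), 2 of them with higher levels in MUT. DESeq2 called 2 (2.39% of all genes). MUT lay below all EV libraries for 19 members and above them for 7, against 13% and 12.6% of all genes. Without WT replicate 1 of this batch 5 members were called (4.7% of all genes), without WT replicate 3 there was 1 (0.962%), and with no filter on low counts there were 2 (1.14%).

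**Figure D2:**
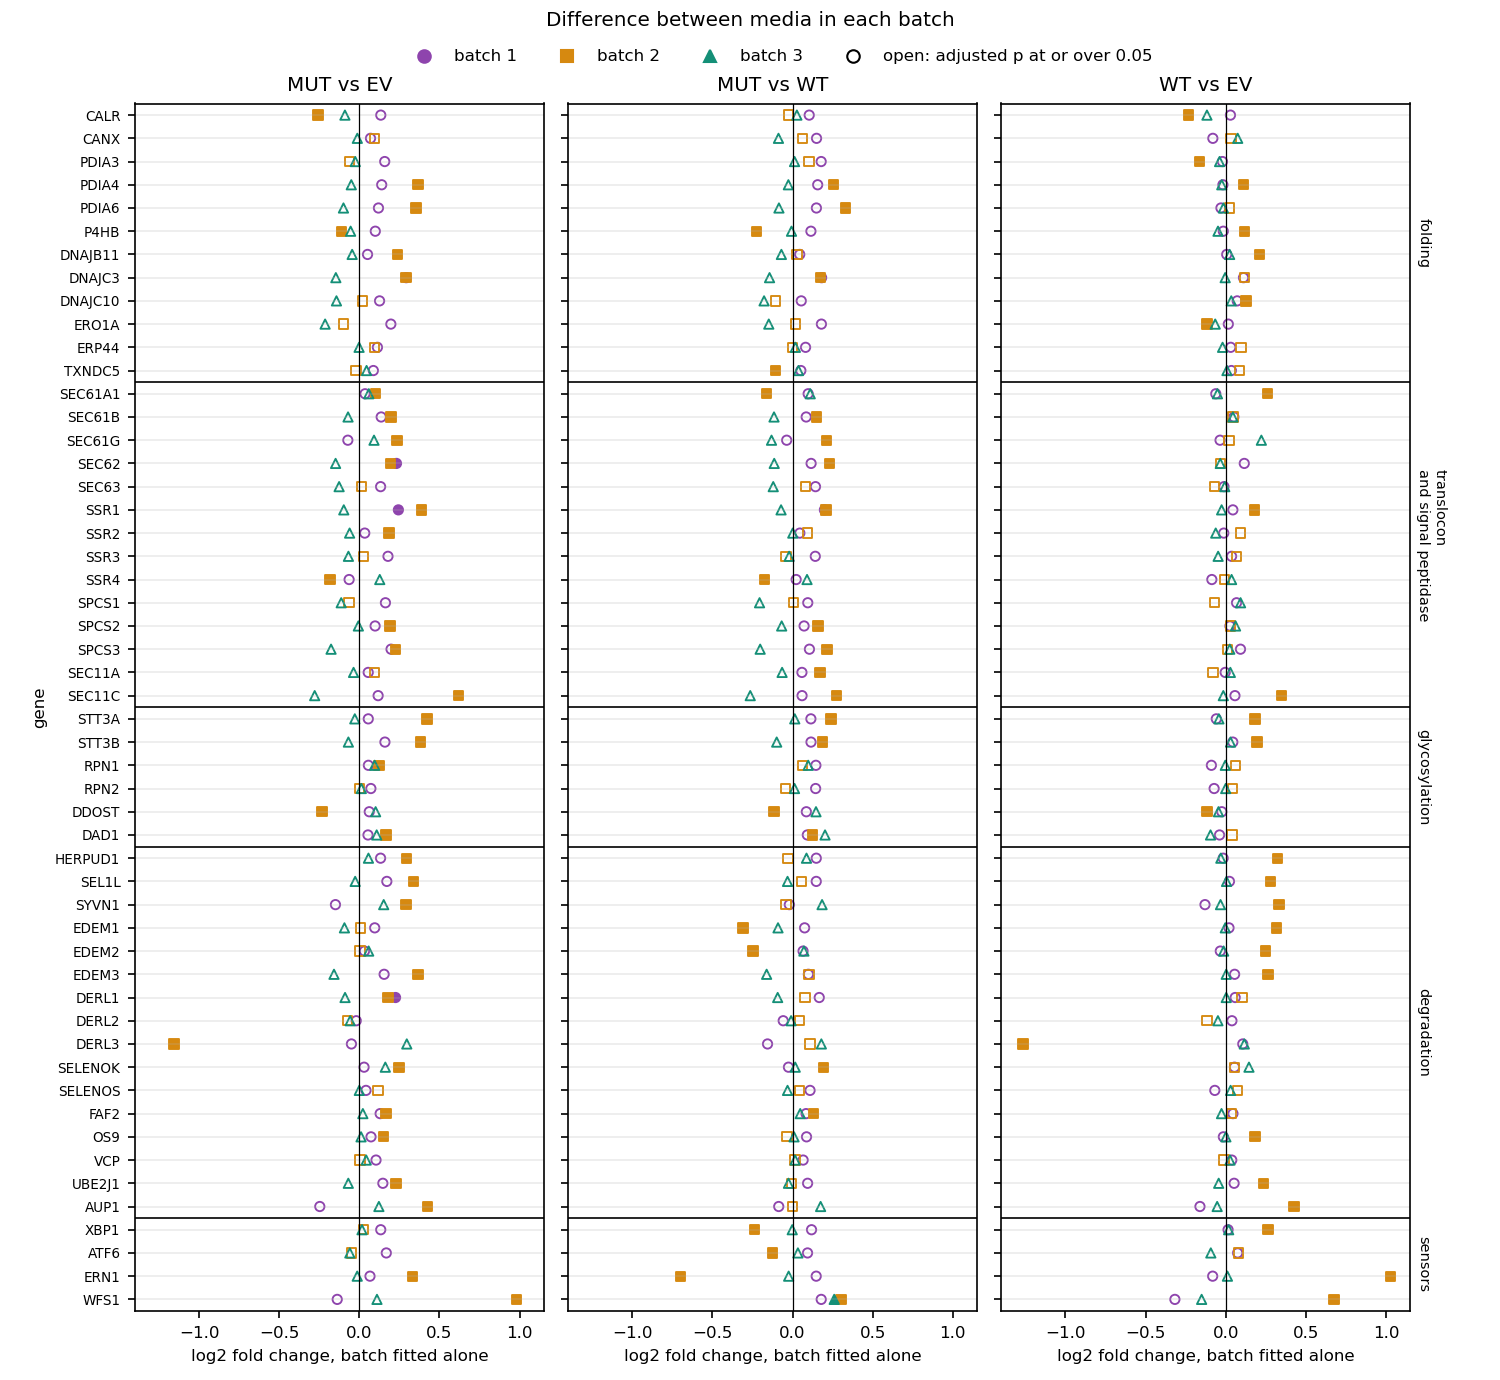
Log2 fold change of each of the 52 genes (rows, grouped by role) between media, with each batch fitted alone; filled symbols had an adjusted p under 0.05 and open symbols did not. For MUT vs EV the batch 3 triangles of most folding and translocon genes lie left of the batch 1 circles, and the widest values are those of batch 2, from -1.16 for DERL3 to 0.98 for WFS1.

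GC content moved with these differences. Transcripts of the 52 genes have 37.2 to 62% GC. In batch 1 the MUT vs EV difference was larger for members low in GC (Spearman's rho = -0.53 over 52 genes, -0.4 over all genes with a value), and in batch 3 the sign was opposite (0.58 and 0.35). All genes come from the same libraries. Over the 52 genes rho in batch 1 was -0.55 for WT vs EV and -0.12 for MUT vs WT. In batch 3 it was -0.14 for WT vs EV and 0.63 for MUT vs WT. The median difference of the 18 members under 45% GC was 0.16 in batch 1, 0.21 in batch 2 and -0.07 in batch 3, and that of the 20 members at 50% or more was 0.06, 0.06 and 0.04. With each library's trends on GC content and transcript length removed, 8 members were called in batch 1 alone (1.52% of all genes), 40 in batch 2 (52.3%) and none in batch 3 (0.201%). The pooled count was 17, all higher in MUT, and 10.1% of all genes were called, against 5.2% without that step.

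**Figure D3:**
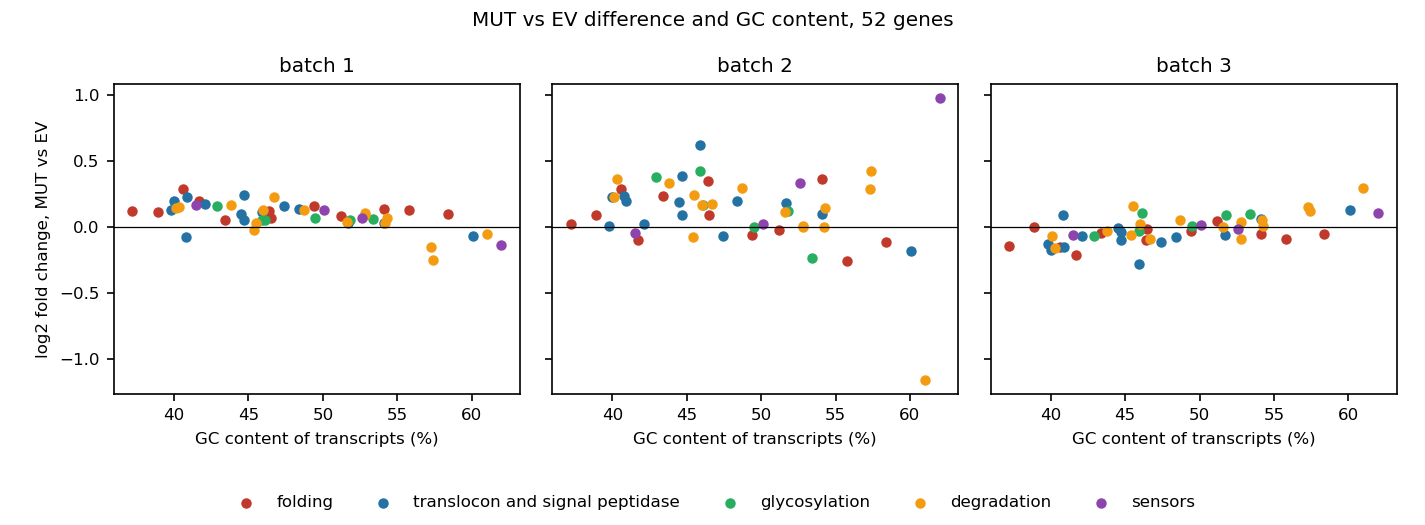
MUT vs EV log2 fold change of the 52 genes (points, coloured by role) against the mean GC content of their transcripts in percent, with each batch fitted alone. The points slope down in batch 1 and up in batch 3, with rank correlations of -0.53 and 0.58.

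MUT against WT compares the mutant with the normal enzyme. Over all batches RPN1 was the member called by edgeR, with a difference of 0.11 ± 0.03 and an adjusted p of 0.0263, and 0.884% of all genes were called. It had 270.7, 266.7, 279.6 and 276.8 CPM in WT libraries of batch 1, 368.2, 369.4 and 364.7 CPM in batch 2 and 319, 346.1 and 353.2 CPM in batch 3. Every MUT library, with the values given above, was above every WT library of its batch. The call was lost without WT replicate 1 or 2 of batch 1 or MUT replicate 1 or 3 of batch 2. The members' median was 0.05 and that of all genes was 0.0044. Of the β-cell markers ABCC8 fell by 0.25 on the log2 scale.

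For 33 members the MUT against WT difference depended on batch (edgeR's quasi-likelihood F test), and 27.1% of all genes did so. With a filter of at least 1 CPM in 9 libraries the share of all genes was 35.6%. In batch 1 alone no member was called by edgeR, where 0.277% of all genes were called. By unadjusted p under 0.05, 26 members passed, all higher in MUT (16.9% of all genes). DESeq2 called 13 (6.66% of the 13407 genes to which it gave an adjusted p). With GC and length trends removed 16 members were called (4.03% of all genes), and without MUT replicate 4 there were 9 (6.31%). In batch 2 alone 17 rose and 10 fell (33.1% of all genes called, 16.8% upward and 16.4% downward, and 42.3% with that filter). In batch 3 alone WFS1 rose (1.22% of all genes called). Without WT replicate 3 of that batch 7 members were called (5.08% of all genes), and with no filter on low counts 4 (2.52%).

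In batch 2 genes of 1 role went both ways. In MUT against WT 8 of the 14 translocon genes rose, with SEC11C at 0.27 ± 0.05, SEC62 at 0.23 ± 0.04 and SPCS3, a signal peptidase subunit, at 0.22 ± 0.04, and 2 fell, SSR4 by 0.18 ± 0.05 and SEC61A1, the channel itself, by 0.16 ± 0.03. PDIA6 rose by 0.33 ± 0.04 and P4HB fell by 0.23 ± 0.04. Of the sensors XBP1 (-0.24), ATF6 (-0.13) and ERN1 (-0.70) fell and WFS1 rose. EDEM1 and EDEM2, which trim mannose from misfolded glycoproteins and mark them for removal, fell by 0.31 ± 0.05 and 0.25 ± 0.04.

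EDEM1 had 38.89, 34.3 and 35.93 CPM in MUT libraries of batch 2, 45.53, 46.46 and 43.82 CPM in WT libraries and 37.96, 34.5 and 36.41 CPM in EV libraries. XBP1 had 180.8, 158.5 and 167.8 CPM in MUT, 199.8, 203.9 and 196.9 CPM in WT and 168.3, 160.5 and 170.7 CPM in EV. For both genes the WT libraries of batch 2 stood above all others, and MUT and EV overlapped. Gene counts do not separate the spliced, active form of the XBP1 transcript from the unspliced form.

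WT against EV compares medium from cells making the normal enzyme with medium from empty-vector cells. Over all batches no member was called by edgeR (0.315% of all genes), 9 passed an unadjusted p under 0.05 (13.2% of all genes), and DESeq2 called none (1.91% of all genes). The difference depended on batch for 16 members (23.2% of all genes), 8 of them degradation genes, and for 27 with GC and length trends removed (26.7% of all genes). With a filter of at least 1 CPM in 9 libraries it depended on batch for 30.6% of all genes, so the count of 16 was near the share of well-counted genes. Among the markers SLC30A8 of the β-cell genes rose by 0.30, and CPA1, the acinar gene tested, fell by 0.22. In batches 1 and 3 alone no member was called by edgeR (0.0143% and 0.00981% of all genes), with 5 and 3 at an unadjusted p under 0.05 (9.75% and 5.35% of all genes). DESeq2 called 1 and 0 (0.772% and 0.162% of all genes).

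In batch 2 alone 21 members rose and 5 fell in WT against EV (38.9% of all genes called, 19.6% upward and 19.3% downward). With a filter of at least 1 CPM in 9 libraries 48.3% of all genes were called, near the share of the members. Of the degradation genes 9 rose, among them AUP1 (0.43 ± 0.04), which recruits ubiquitin-conjugating enzymes, SYVN1 (0.33 ± 0.05), HERPUD1 (0.32 ± 0.04), EDEM1 (0.32 ± 0.05), SEL1L (0.28 ± 0.04) and OS9 (0.18 ± 0.04), a lectin that delivers misfolded glycoproteins, and DERL3 fell. Of the sensors ERN1, WFS1 and XBP1 rose. Of the 14 translocon genes 3 rose, SEC11C, SEC61A1 and SSR1. CALR (-0.23), PDIA3 (-0.16), ERO1A (-0.12), DDOST (-0.12) and DERL3 (-1.27) were the 5 that fell. Mitochondrial transcripts made up 3.99 to 4.05% of counts in WT libraries of batch 2 and 4.8 to 5.25% in EV libraries, and the part of this in the result was not tested. Of the 12 β-cell markers 9 rose and 2 fell, which was not tested either. With GC and length trends removed 43 members were called, 38 of them higher in WT, and 43.3% of all genes.

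ERN1 encodes IRE1, the ER membrane kinase and nuclease that splices the XBP1 transcript. It had 20.31, 20.57 and 20.53 CPM in MUT libraries of batch 2, 35.46, 32.98 and 31.62 CPM in WT libraries and 16.31, 17.95 and 14.71 CPM in EV libraries. The 3 media of that batch did not overlap, and the WT libraries were the 3 highest of all 29. In batch 1 the values ran from 20.22 to 22.1 CPM in MUT, 17.97 to 18.99 CPM in WT and 18.88 to 21.3 CPM in EV, and in batch 3 all 9 libraries lay between 14.83 and 15.64 CPM. WT was above EV by 1.03 ± 0.07 in batch 2 (adjusted p = 3.07e-09, edgeR), by -0.08 ± 0.06 in batch 1 and by 0.01 ± 0.06 in batch 3, and the dependence on batch had an adjusted p of 1.09e-11.

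WFS1 had 134.7, 144.2 and 134.4 CPM in MUT libraries of batch 2, 116.8, 112.8 and 107 CPM in WT libraries and 69.05, 73.78 and 67.49 CPM in EV libraries. Those EV libraries were the 3 lowest of all 29, whose other EV libraries had 144.3 to 158.1 CPM in batch 1 and 118.8 to 128.2 CPM in batch 3. In batch 2 the differences were 0.98 ± 0.05 for MUT against EV and 0.68 ± 0.05 for WT against EV. MUT was above WT by 0.18 ± 0.06 in batch 1, 0.30 ± 0.05 in batch 2 and 0.26 ± 0.06 in batch 3, called by edgeR in batches 2 and 3 with adjusted p of 8.31e-05 and 0.0457, and the dependence of that difference on batch was not called (interaction adjusted p = 0.612). The pooled difference of 0.25 ± 0.10 had an adjusted p of 0.237 by edgeR. The batch 3 call was lost without any 1 of the 3 MUT or 3 EV libraries or WT replicate 2 of that batch, with GC and length trends removed, with scaling by total library size and when the spread was not estimated robustly.

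DERL3 had 4.52, 6.31 and 5.11 CPM in MUT libraries of batch 2, 5.53, 3.84 and 5.49 CPM in WT libraries and 12.43, 12.09 and 11.16 CPM in EV libraries. The 6 MUT and WT libraries of batch 2 were the 6 lowest of all 29, and the remaining 23 lay between 8.29 and 13.04 CPM. MUT against EV differed by -1.16 ± 0.14 in batch 2, -0.05 ± 0.09 in batch 1 and 0.30 ± 0.10 in batch 3, and WT against EV by -1.27 ± 0.14, 0.11 ± 0.09 and 0.12 ± 0.10. Its exons overlap an annotated gene on the opposite strand, as do those of 23 members in all, AUP1 among them, and whether the counting used strand is not given in the sources used here. Exons of 7 members, SSR1 and STT3A among them, overlap a gene on the same strand, which the strand of a read cannot separate.

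AUP1 had 191.2, 201 and 205.3 CPM in MUT libraries of batch 2, 199.8, 198.6 and 201.6 CPM in WT libraries and 145.2, 151 and 149.7 CPM in EV libraries. In batch 1 it had 147.8, 126.6, 137.1 and 153.1 CPM in MUT, 148.7, 149.2, 147.6 and 145.8 CPM in WT and 172.1, 158.2 and 166.4 CPM in EV. MUT and WT lay above EV in batch 2 and below EV in batch 1, without overlap. The differences of MUT against EV were -0.25 ± 0.06 in batch 1, 0.43 ± 0.04 in batch 2 and 0.12 ± 0.06 in batch 3, and the interaction had an adjusted p of 5.65e-07 by edgeR.

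**Figure D4:**
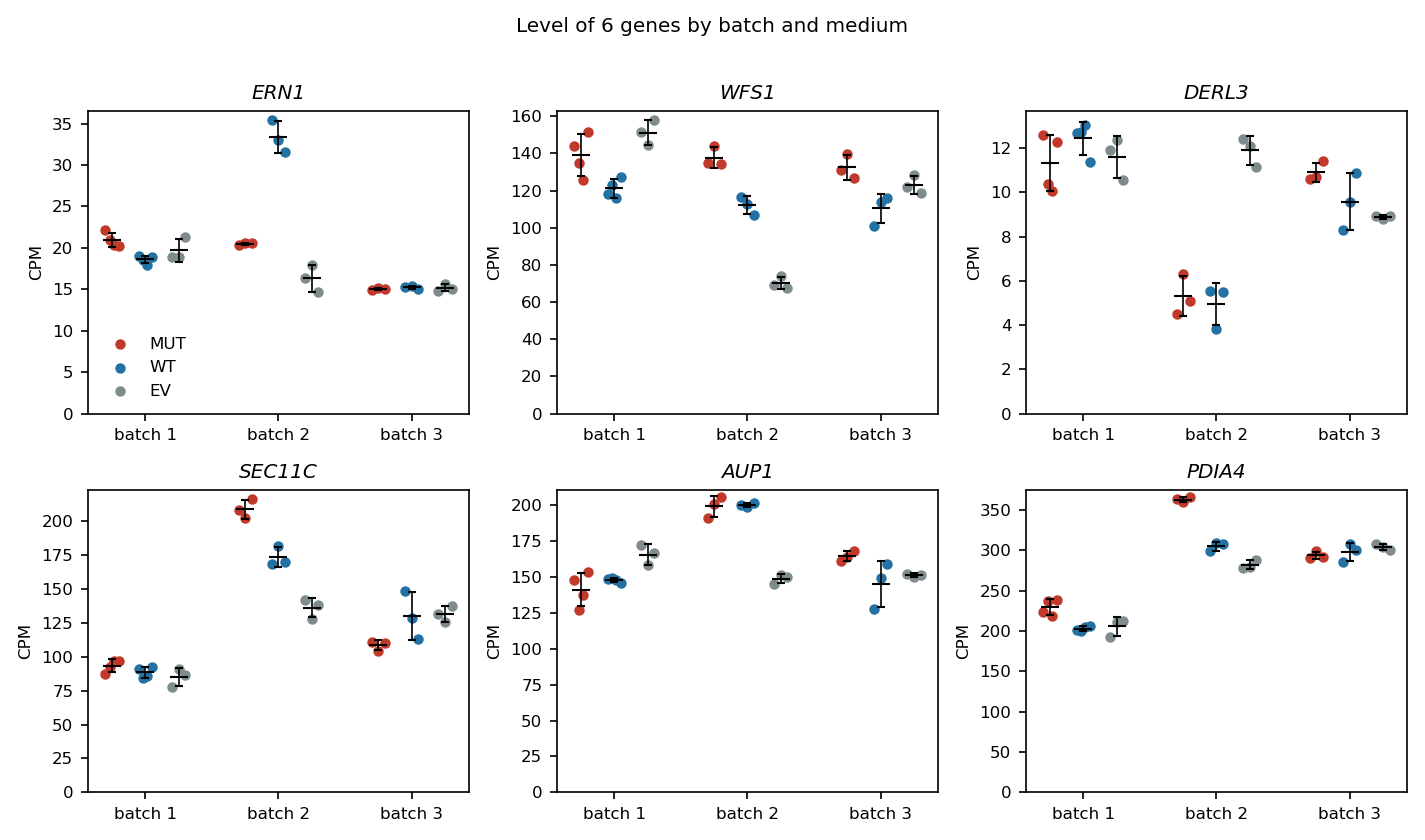
CPM of 6 genes in each library (points), with the mean and SD (black bars) of each medium in each batch; axes start at 0. In batch 2 ERN1 was highest in WT, WFS1 was lowest in EV, DERL3 was low in MUT and WT, and AUP1 was low in EV.

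Genes of the same pathway outside the 52 were read from lists chosen for their role, beside 5.2% of all genes called in MUT against EV. Of 31 other folding enzymes and lectins 3 rose in MUT against EV over all batches: TMX2 (0.10), ERO1B (0.27), the pancreatic relative of ERO1A, and FKBP2 (0.23), a prolyl isomerase. Of 26 genes of signal recognition and insertion 2 rose, SRP72 (0.12) and GET1 (0.16), and 1 fell, SEC61A2 (-0.18). Of 25 other glycosylation genes DPAGT1 (0.12), of 31 other degradation genes ERLEC1 (0.14) and TMEM33 (0.21), and of 14 other sensors and proteases EIF2AK3 (0.19), MBTPS1 (0.11) and RTCB (0.13) rose. Of 7 inducible chaperones 4 rose, among them HSPA5 (0.15), which encodes BiP, and MANF (0.23). The difference varied by batch for all 7 of these chaperones and for 22 of the 31 other folding genes, where 42.4% of all genes did so. In batch 2 alone 5 of the 7 rose and 2 fell (47.8% of all genes called), and in batch 3 alone none was called (0.049%). No gene of any list was called in MUT against EV over batches 1 and 3 together, where 0 of all 20934 genes tested were called. MANF was the gene of these lists called in MUT against WT over all batches, at 0.22 ± 0.04 with an adjusted p of 0.00172 by edgeR (0.884% of all genes called). None was called in WT against EV (0.315% of all genes).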

How the data were processed

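RNA sequencing libraries (TruSeq Stranded mRNA, per the labels' protocols) of 29 EndoC-βH1 samples were analysed as grouped by the labels. The authors deposited 1 table of estimated counts per Ensembl gene; fastp and kallisto are named in the submitters' processing notes, while versions, genome build, annotation and strand setting of the counting were not stated. Such counts share reads among transcripts of similar sequence. Of 66025 entries 89.9% had a symbol in GENCODE v29 (GRCh38), and the others held 2.69% of counts.

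Counts were rounded, filtered with filterByExpr and scaled by TMM. Differences were tested with edgeR 4.0.16 (limma 3.58.1, R 4.3.3) by robust quasi-likelihood fits over all 29 libraries, with medium and batch as terms, by the interaction of both, and in each batch alone. All genes kept were tested (21259 in the pooled fit, 24 residual degrees of freedom) with Benjamini-Hochberg adjustment over all of them, and called means an adjusted p under 0.05. CPM are scaled by TMM and not by length, so levels are compared within a gene only. Totals of 26.2 to 40.2 M and at least 131 counts per member and library set the precision. Apart means that no library of 1 medium lay within the range of the other. Named with full values were members called in the pooled fit (at most 4 per role, by smallest p), up to 2 per role with the smallest interaction p, and up to 3 called genes of each other list; further members are named as examples. The steps were tested on simulated counts in which the MUT effect was the same in every batch. That test does not cover differences that vary by batch.

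Same-numbered libraries did not deviate together, so replicate numbers were not used for pairing. Alternatives were DESeq2 1.42.0 and its size factors, total library size, other filters, fits without batch, summed profiles, a replicate block, each library or batch left out and, added after seeing the data, a fit that is not robust, voom with correlated libraries, and GC and length trends removed within batches. Wherever a share of all genes is given for DESeq2, it is over the genes to which DESeq2 gave an adjusted p. These were fewer than in the edgeR fits in some comparisons, such as 17883 in pooled MUT against EV and 12647 in batch 1. Promoters are RefSeq windows (GRCh38.p14). The 52 members and the other lists were chosen with earlier results of these data known.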

Additional observations from a re-analysis of the deposited data

Results flagged for a closer look

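Of 120 groups of libraries examined for 1 value far from the rest, 2 held one. Some of these groups held 1 medium over all 3 batches, where differences between batches widen the spread. The rate of about 1 in 20 that chance gives does not apply to those groups. SSR1 had 116.7 CPM in WT replicate 2 of batch 1, away from the other 3 WT libraries of that batch. STT3B had 222.5 CPM in WT replicate 1 of batch 3, away from the other WT libraries.

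The difference between media varied by batch for many members, by edgeR's interaction test with Benjamini-Hochberg adjustment. It did so for 34 in MUT against EV (42.4% of all genes), 33 in MUT against WT (27.1%) and 16 in WT against EV (23.2%). For MUT against EV the adjusted p was 6.862e-06 for PDIA4, 1.567e-06 for PDIA6, 2.989e-06 for SSR1, 5.795e-08 for SEC11C, 6.107e-05 for STT3B and 2.119e-06 for STT3A. It was 0.04379 for SELENOK, 0.01373 for HERPUD1, 0.0008001 for SEL1L, 6.524e-08 for DERL3, 5.648e-07 for AUP1, 2.261e-11 for WFS1 and 0.007586 for ERN1. In 8 of these 13 genes (PDIA4, PDIA6, SSR1, SEC11C, STT3A, STT3B, SEL1L and ERN1) the sign was positive in batches 1 and 2 and negative in batch 3.

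For MUT against WT the adjusted p of the same test was 1.618e-05 for PDIA6, 0.0002375 for P4HB, 0.0001899 for SEC61A1, 0.0004113 for SEC11C, 0.003848 for DDOST and 0.005007 for RPN2. It was 0.000302 for EDEM1, 0.01384 for EDEM2, 3.963e-09 for ERN1 and 0.0002921 for XBP1. For WT against EV it was 0.01292 for CALR, 0.0332 for DNAJB11, 2.983e-05 for SEC61A1, 0.008993 for SEC11C and 0.003447 for STT3A. It was 4.706e-08 for DERL3, 2.094e-06 for AUP1, 1.089e-11 for ERN1 and 1.567e-10 for WFS1.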

How the results depend on the processing

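Over all batches, 9 members were called in MUT against EV. That count was 0 with 1 summed profile per batch and medium, with no batch term, with the 2 media fitted alone, with voom and correlated libraries, and without batch 2. Those settings called 0, 0, 20, 0 and 0 of all genes. It was 17 with DESeq2 and with GC and length trends removed, 25 without batch 3, 5 without batch 1 and 2 with no filter on low counts, where 12.1%, 10.1%, 22.5%, 5.53% and 0.543% of all genes were called, against 5.2%. Leaving out 1 library gave 0 to 13. For MUT against WT the count of 1 was 0 with summed profiles, no batch term, no filter, voom or batch 1 left out. It was 6 with DESeq2, 3 with GC and length trends removed, 5 with the media fitted alone, 2 without batch 2 and 15 without batch 3 (3.42%, 2.1%, 1.87%, 1.46% and 7.35% of all genes, against 0.884%), and 0 to 2 with 1 library left out. For WT against EV the count of 0 stayed 0 with any 1 library left out. Without batch 2 it was 1 (0.244% of all genes called, against 0.315%). That member was WFS1, whose difference was -0.24 without batch 2 (edgeR adjusted p = 0.0442) and 0.03 with it. The cause was not tested.

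The 34 members whose MUT against EV difference varied by batch were 10 without batch 2 and 18 without batch 3 (7.83% and 29.7% of all genes; 28 to 35 with 1 library left out). For MUT against WT the 33 were 0 and 14 (0% and 16.2% of all genes, and 22 to 35 with 1 library left out). For WT against EV the 16 were 0 without batch 2 (0% of all genes) and 14 to 22 with 1 library left out. With GC and length trends removed they were 27, and the share of all genes is given with the WT against EV results above. The 32 called in batch 3 against batch 2 were 18 with EV libraries only (40.8% of all genes, against 44.5%). Same-numbered libraries correlated by -0.058 to 0.089 over 28 pairs. With a replicate block 0 members were called in MUT against EV, 0 in MUT against WT and 0 in MUT against EV of batch 1 alone. The block called 0%, 0.24% and 0.613% of all genes in these comparisons. Of 2164 alternative values of single members' fold changes 1988 kept their side of the threshold, 160 lost the call and 15 gained one. The remaining 1 changed sign with a call in at least 1 of the 2 fits. A change of sign without a call was not counted apart and lies within the 1988. The lowest count of a member in any library was 131.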
